A study of Mus musculus with 2 samples.

Results

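The sites described here were weak open-chromatin intervals of mouse erythroblasts that appeared in both replicates but reached no strict peak list. They were the distinct intervals of the replicate 1 less strict (pseudoreplicated) list on chromosomes 1 to 19 and X that overlapped an interval of the replicate 2 less strict list by at least 1 bp. In addition, they overlapped no interval of the 4 strict lists, which were thresholded on the irreproducible discovery rate for each replicate and, in 2 versions, for the series. Of 31810 distinct intervals in replicate 1, 26595 overlapped a strict list, 3322 were weak and had no counterpart in replicate 2, and 1893 were weak and recurred. The sites were thus selected on the deposited peak calls and their IDR grades, so the strength and the recurrence of the sites are given below as a description and were not tested.

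The study had 1 group, primary erythroblasts of adult male C57BL/6J mice aged 5 to 6 weeks, with 50000 cells in each of 2 biological replicates. The assay was ATAC-seq, and all positions are in mm10. The labels named no treatment or altered allele and gave both replicates the same donor identifier, so the spread between them may not include the spread between animals. The deposited lists held no read counts, and the depth behind each site is unknown. The labelled cell type was checked through promoters: 23 of 24 erythroid regulator genes, 24 of 24 genes of heme and iron metabolism and 7 of 10 globin genes had a strict interval within 1 kb of a start site, against 0 of 17 hepatocyte and 2 of 16 neuron genes. Among all protein-coding genes the share was 46.7%. It was 9 of 22 for megakaryocyte and platelet genes and 4 of 16 for muscle genes. Cell cycle genes (22 of 23) and housekeeping genes (20 of 20) were open as often as the erythroid lists. A high share alone therefore does not mark a list as erythroid.

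ATAC-seq uses a transposase that cuts DNA where nucleosomes are absent or loose, so that promoters, enhancers and insulators give peaks of cuts. The irreproducible discovery rate (IDR) compares the ranks of peaks between replicates, or between random subsets of the reads of a replicate, and grades how well a peak repeats. Erythroblasts are the nucleated precursors of red cells. GATA1, the leading regulator of this lineage, binds GATA motifs, often at enhancers beside TAL1 and KLF1, whereas CTCF binds a long motif at insulators and at the anchors of chromatin loops.

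The sequences below show what lay at the summit of such sites. Each runs 75 bp to each side of the replicate 1 summit and was read from the plus strand of GRCm38.p6 (RefSeq), and is named by the gene with the nearest annotated start. Capitals mark a GATA motif (AGATAA or TGATAA) or a CTCF motif, searched as 1 core consensus with free positions whose matches can be read from the capitals. Both were searched on both strands (in the motifs below N is any base), so a motif on the minus strand appears as its reverse complement. The first sequence is the site of highest mean enrichment over both replicates and held neither motif. It held matches to the GC box (GGGCGG) and the NFY motif (CCAAT).
Mir148a, chr6:51178587-51178737: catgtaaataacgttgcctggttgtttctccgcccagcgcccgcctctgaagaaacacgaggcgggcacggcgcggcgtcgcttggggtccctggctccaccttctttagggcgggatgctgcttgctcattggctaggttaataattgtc
The next 2 are from the 3 sites with a GATA motif of highest mean enrichment among those more than 1 kb from any start.
Vps8, chr16:21606368-21606518: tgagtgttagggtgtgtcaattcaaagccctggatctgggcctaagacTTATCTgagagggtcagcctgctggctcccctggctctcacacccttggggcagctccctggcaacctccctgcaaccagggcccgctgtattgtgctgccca
Gm48881, chr13:97205156-97205306: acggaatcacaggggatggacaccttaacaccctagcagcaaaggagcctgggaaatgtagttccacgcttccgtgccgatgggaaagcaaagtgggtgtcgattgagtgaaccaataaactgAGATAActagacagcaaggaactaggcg
The 3 sites with a CTCF motif chosen in the same way follow.
Slc26a3, chr12:31374708-31374858: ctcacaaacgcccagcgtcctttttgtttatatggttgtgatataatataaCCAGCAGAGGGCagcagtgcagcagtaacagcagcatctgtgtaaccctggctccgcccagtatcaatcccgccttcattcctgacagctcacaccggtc
Gm48293, chr9:40756460-40756610: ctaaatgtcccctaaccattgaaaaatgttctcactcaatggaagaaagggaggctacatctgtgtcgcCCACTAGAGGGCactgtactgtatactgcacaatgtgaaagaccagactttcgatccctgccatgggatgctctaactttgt
Cacna1c, chr6:119104384-119104534: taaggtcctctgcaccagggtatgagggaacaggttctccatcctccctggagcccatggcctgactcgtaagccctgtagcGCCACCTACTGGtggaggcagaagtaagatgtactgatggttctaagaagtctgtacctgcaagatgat
The last 3 held a GATA motif and lay within 50 kb of a start of an erythroid gene, which here gives the name. They were chosen after the values were seen.
Alox15, chr11:70309448-70309598: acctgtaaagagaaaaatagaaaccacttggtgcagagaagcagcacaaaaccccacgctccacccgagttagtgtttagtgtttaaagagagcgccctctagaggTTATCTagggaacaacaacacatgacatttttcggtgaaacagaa
Trim10, chr17:36844343-36844493: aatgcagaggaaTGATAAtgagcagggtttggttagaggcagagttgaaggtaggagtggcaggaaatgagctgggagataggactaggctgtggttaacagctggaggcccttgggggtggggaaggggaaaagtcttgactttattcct
Bach1, chr16:87726125-87726275: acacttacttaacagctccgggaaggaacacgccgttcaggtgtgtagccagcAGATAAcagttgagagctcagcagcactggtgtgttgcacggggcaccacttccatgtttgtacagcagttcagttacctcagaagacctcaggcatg
The CTCF matches began 24 bp before the summit at Slc26a3, 6 bp before it at Gm48293 and 7 bp after it at Cacna1c. The GATA matches began 48 bp after the summit at Gm48881 and 27 bp before it at Vps8. In the last 3 sequences they began 31 bp after the summit at Alox15, 63 bp before it at Trim10 and 22 bp before it at Bach1. On a grid of windows of the same length placed every 10 kb along the genome, 18.7% held the GATA motif and 0.778% held the CTCF motif.

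The weak recurring sites were small in strength and in extent. Enrichment, the fold of the summit over background given by the authors' peak caller, had a median of 3.55 in replicate 1, with quartiles at 3.04 and 4.13 and a range from 1.57 to 8.25. The overlapping intervals of replicate 2 had a median of 3.67 and ranged from 1.504 to 7.40. Weak sites of replicate 1 without a counterpart had a median of 3.30, and sites in a strict list 6.32. The ranges overlapped: 19 of the weak recurring sites lay above the median of the strict sites, and 2343 strict sites (8.81%) lay below the median of the weak recurring ones. The median −log10 p was 6.47, against 5.41 at weak sites of replicate 1 alone and 25.4 at strict sites. Median widths were 299, 238 and 483 bp, and the weak recurring sites together covered 625 kb.

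The deposited −log10 global IDR put most of these sites at the least reproducible end. In replicate 1, 1664 of the 1893 sites (87.9%) stood at the lowest value in the list, 0.470, and 1341 stood at the lowest value in both replicates. The same value was held by 93.5% of the weak sites of replicate 1 alone and by 3052 strict sites (11.5%). The thresholded list of replicate 1 began at 1.30111 and the highest weak recurring site reached 1.28938. Next to that edge the difference in strength was small in replicate 2. There the 10 weak recurring sites nearest the threshold had a median enrichment of 5.09, and the 10 thresholded intervals just inside it also had 5.09. In replicate 1 these medians were 4.73 and 5.39.

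Of the 5215 intervals of replicate 1 outside the strict lists, 36.3% recurred in replicate 2 (95% Wilson interval 35.0 to 37.6). With the roles of the replicates exchanged, 1887 of 6429 recurred, or 29.4% (28.3 to 30.5). Such intervals cover counting error only. The overlap was mostly close: 1635 of the 1893 sites (86.4%) shared at least 50% of the bases of both intervals. In 5 cases the replicate 2 interval itself touched a strict interval, and 40 sites shared 20 replicate 2 intervals. Nearly all were also in the deposited lists of the series without a strict threshold, 1889 in the replicated list and 1881 in the pseudoreplicated list. For the weak sites of replicate 1 alone these shares were 62.5% and 70.5%. All of these lists rest on the same reads.

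Summits fell close together but less so than at strict sites. The median distance between the summits of the 2 replicates was 21 bp, and 73.7% lay within 50 bp, against 8 bp and 93.4% at strict sites. A single summit was called in 82.1% of weak recurring sites and in 53.4% of strict sites. Among pairs with 1 summit in both replicates, 82.6% of the weak recurring and 98.4% of the strict pairs lay within 50 bp. Enrichment differed by no more than 1.5-fold between replicates at 1760 of the 1893 sites (93.0%). It was higher in replicate 1 at 879 and in replicate 2 at 1014. Across the sites, the log2 enrichments of the replicates had a Pearson r of 0.519 (Spearman rho 0.495, n = 1893). At the strict sites r was 0.915 (rho 0.917, n = 25557), over a far wider range of enrichment.

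The 2 enrichments formed a cloud with 2 arms. An enrichment above 5 was reached in replicate 1 only at 150 sites, in replicate 2 only at 203, and in both at 13 (0.687%). At strict pairs it was reached in both at 17398 (68.1%) and in 1 replicate only at 2634 (10.3%). The rule removes sites that a strict list holds, which include most of those strong in both replicates, so the empty corner and the value of r over these sites are shaped by how they were chosen. The values were also coarse. In replicate 1, 896 of the 1893 sites (47.3%) had the same enrichment and −log10 p as at least 1 other, and 93 sites shared an enrichment of 3.83 with a −log10 p of 5.82. At weak sites of replicate 1 alone 64.1% shared both values with another, and at strict sites 34.7%.

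**Figure D1:**
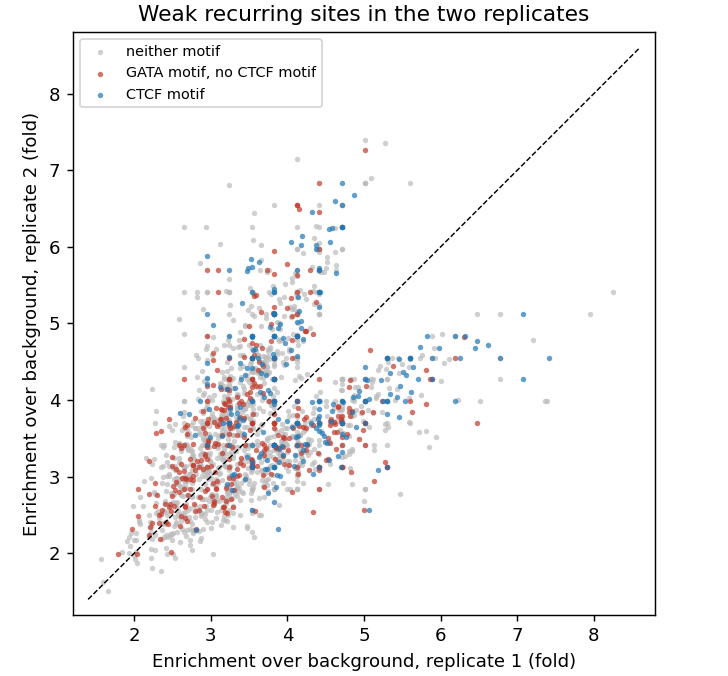
Enrichment of each weak recurring site in replicate 1 (horizontal axis, fold over background) and replicate 2 (vertical axis), with 1 point per site coloured by the motif at the replicate 1 summit and a dashed line of equal values. The quartiles in replicate 1 are 3.04 and 4.13, and the points spread into 2 arms, with 13 sites above 5 in both replicates.

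The 10 sites of highest mean enrichment lay along these arms. The site at chr6:51178507-51178844, 91.2 kb from Mir148a, had an enrichment of 8.25 in replicate 1 and 5.41 in replicate 2 (mean 6.83 ± 2.01, SD, n = 2). It was intergenic and lay 7.25 kb from the nearest strict interval. The site 26.8 kb from Tab2, a kinase adaptor gene, had 7.95 and 5.12. Higher values in replicate 1 were also seen 16.1 kb from Slc26a3, an anion transporter gene (7.07 and 5.12), in an intron of Pknox2, a homeobox gene (7.20 and 4.79), and near Gm48293 (7.42 and 4.55). The other 5 were higher in replicate 2. They included the promoters of Trim30d, with 5.01 and 7.40, and Nfe2l3, a bZIP transcription factor gene, with 5.09 and 6.90. The sites at Gm33051 (5.27 and 7.36) and 21.1 kb from Gm39473 (5.597 and 6.83) were also higher in replicate 2. The sites were chosen for a high mean, so these values describe the top of the range.

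Most weak recurring sites lay away from promoters. In replicate 1, 503 summits (26.6%, 24.6 to 28.6) lay within 1 kb of an annotated start, 81 (4.28%) in another exon, 752 (39.7%) in an intron and 557 (29.4%) between genes. Over the mirrored sets of both replicates the promoter share was 26.5% ± 0.165 (SD, n = 2). It was 20.7% ± 0.410 for weak sites of 1 replicate and 48.5% ± 0.114 for strict sites, and 6.13% of the genome lay within that distance. These gaps were wider than the spread between replicates, although the mirrored sets hold largely the same places. Exons held fewer of the weak recurring sites (4.42% ± 0.197) than of the weak sites of 1 replicate (6.74% ± 0.598). Of the 503 promoter sites, 393 had a protein-coding gene at the nearest start and 36 a processed pseudogene. The 1390 sites beyond 1 kb, called distal below, had a median distance of 9235 bp to the nearest start.

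**Figure D2:**
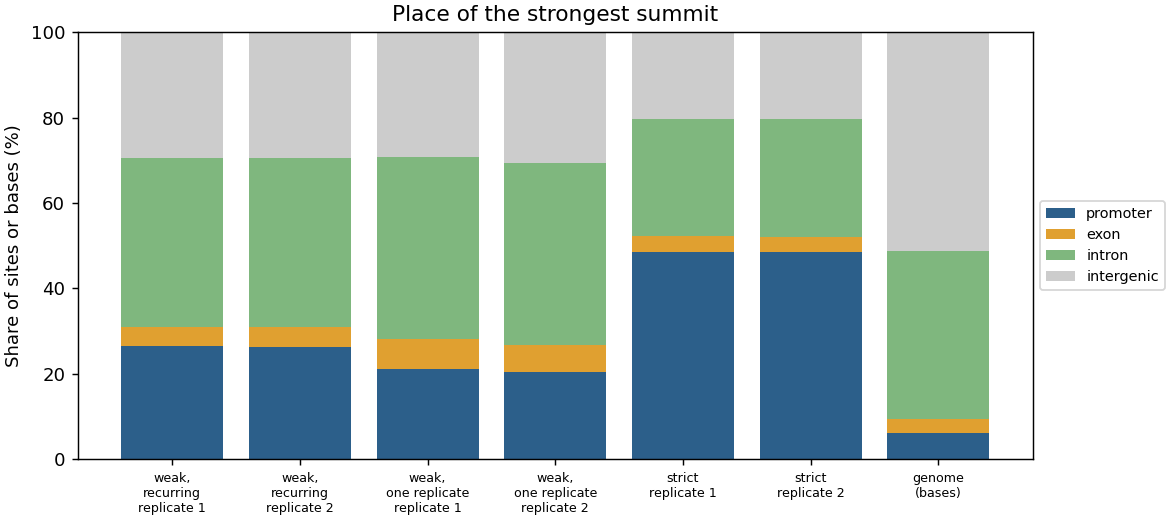
Share of sites (vertical axis, %) by the place of the strongest summit for weak recurring, weak unreplicated and strict sites in each replicate, with the share of genome bases at the right. Promoters hold 26.6% of weak recurring sites in replicate 1, 21.01% of weak sites of 1 replicate and 48.5% of strict sites.

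Many of the sites stood near strong peaks. The median distance to the nearest strict interval was 11567 bp, and 334 sites (17.6%) lay within 1 kb. Those 334 had a median enrichment of 2.92 in replicate 1 and 2.97 in replicate 2, and 50.3% were at promoters. The other 1559 had 3.74 and 3.73, with 21.5% at promoters. At the far end, 338 sites lay more than 50 kb from any strict interval and had 3.83 and 3.98. Clusters were few: 73 sites (3.86%) had another such site within 1 kb. By chromosome, the density was highest on chromosome 11, with 1.25 ± 0.0119 sites per Mb (SD, n = 2), and next on 19, with 1.19 ± 0.0121. It was lowest on X, with 0.287 ± 0.00865, and 0.740 genome-wide in replicate 1. These SDs are between the set and its mirror image, which hold largely the same places. They are therefore small by the rule and do not measure the spread between replicates. Strict sites had the same extremes in replicate 1, with 19.5 per Mb on chromosome 11, 16.7 on 19 and 3.93 on X. In replicate 1 the weak recurring sites made up between 4.89% (chromosome 7) and 7.20% (chromosome 16) of all intervals on a chromosome, and 6.56% on X, which a male carries in 1 copy.

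GATA motifs were more frequent at distal weak recurring sites than beside them. Among the 1390 distal windows, 344 held the motif (24.7%, 22.6 to 27.1), and 25.5% did at the summits of the overlapping replicate 2 intervals. Of windows 1000 bp to each side that touched no listed interval, 15.3% held it (13.9 to 16.7). The share at distal weak sites of 1 replicate was 16.5% (15.1 to 17.97) in replicate 1 and 17.99% in replicate 2. Their own flanks had 15.2% and 14.3%. At distal strict sites it was 30.4%, with 29.3% in the fifth of lowest and 37.6% in the fifth of highest enrichment. The GATA shares of weak recurring and unreplicated sites had intervals that did not meet in replicate 1. These intervals cover counting error only, over sites that share the same 2 libraries. The 2 classes were split by recurrence and also differed in strength and width, as given above, and the part of these differences was not tested. The median GC content was 51.0% at the distal weak recurring windows, 51.7% at the unreplicated ones and 45.0% in the flanks, and its part in the motif shares was not tested.

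CTCF motifs were scarce in the genome and frequent at weak sites of both kinds. The motif was in 228 of the 1390 distal weak recurring windows (16.4%, 14.5 to 18.4) and in 1.00% of their flanks. In replicate 1, 13.2% of the distal weak sites without a counterpart held it (11.98 to 14.6), with 13.6% in replicate 2, and 22.0% of distal strict sites. The fifth of strict sites with the lowest enrichment had 14.2% and that with the highest 15.9%. Matches were sharply centred. Within 25 bp of the summit there were 2.35 CTCF matches per kb of distal weak recurring sequence, against 0.10 in the bin centred 100 bp downstream, 0.159 at 500 bp upstream (11 matches) and 0.029 at 500 bp downstream (2 matches). The GATA profile was broader, with 2.25 at the summit, 1.398 at 100 bp and 1.25 at 500 bp downstream, and 1.05 at 500 bp upstream.

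**Figure D3:**
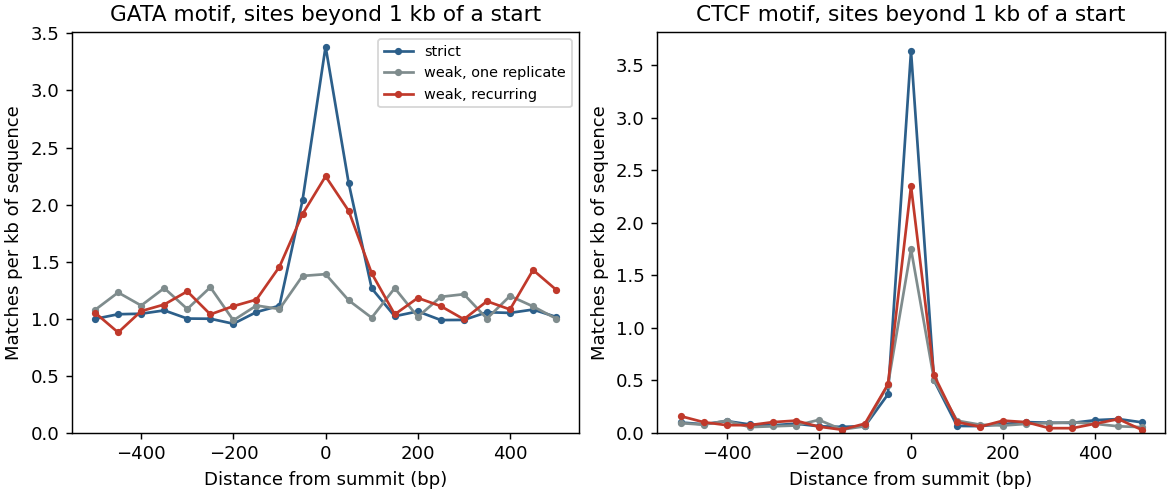
Motif matches per kb of sequence (vertical axis) in 50 bp bins against the distance from the replicate 1 summit (horizontal axis, bp) for GATA at left and CTCF at right, at sites beyond 1 kb of a start. At weak recurring sites CTCF matches peak at 2.35 per kb at the summit, and GATA matches rise to 2.25 over a broader base.

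Other motifs of erythroid factors differed less than GATA between the distal weak recurring sites and the unreplicated ones of replicate 1. The E-box of TAL1 type (CAGNTG) was in 39.7% of the distal weak recurring windows, in 43.5% of the distal weak sites of replicate 1 alone and in 32.6% of the flanks. It occurs in 29.3% of genome windows. The CACCC box bound by KLF factors (CCNCACCC) was in 9.14%, against 7.81% at unreplicated and 11.05% at strict distal sites, with 3.05% in the genome. The NFE2 and AP-1 motif (TGANTCA) was in 7.99%, 6.78% and 8.56% of these classes, with 4.47% in the genome. At distal weak recurring sites both motifs rose at the summit, to 0.821 matches per kb for CACCC and 0.793 for NFE2. At 500 bp upstream they had 0.317 and 0.231, and at 500 bp downstream 0.389 and 0.403. PU.1 (GAGGAAG), a factor of myeloid and B cells, had 6.76%, 6.48% and 5.52%, with 4.51% in the genome. The RUNX motif (TGTGGT) was in 14.7% of the distal weak recurring windows and in 10.6% of genome windows, and the STAT5 motif (TTCNNNGAA) in 3.31% and 5.65%. GATA with an E-box stood in 140 distal windows (10.1%), and GATA with CTCF in 15 (1.08%). A match is a string of letters, and no binding was measured.

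The sites with CTCF and those with GATA differed in their surroundings, a comparison made after the motif shares were seen. The 213 distal sites with CTCF and no GATA motif had a median enrichment of 4.10 in replicate 1 and 4.11 in replicate 2, a median width of 245 bp and a median distance of 21.5 kb to the nearest strict interval. For the 329 with GATA and no CTCF motif these values were 3.53, 3.63, 298 bp and 9.45 kb. Introns held 67.2% of the GATA sites and 42.3% of the CTCF sites, whereas 28.3% and 53.5% were intergenic. The 833 distal sites with neither motif had medians of 3.53 and 3.66, and 52.1% were intronic.

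Within the weak recurring sites the CTCF share climbed with enrichment, and the GATA share did not. Among strict sites, as given above, GATA was more frequent at the highest than at the lowest enrichment, and CTCF was below its overall share in both. With distal weak recurring sites split into 3 groups of equal size by mean enrichment, the share with CTCF was 4.75% (3.16 to 7.09) in the lowest, 17.1% in the middle and 27.4% (23.5 to 31.6) in the highest group. The GATA share was 27.9% (24.0 to 32.1), 26.1% and 20.3% (16.9 to 24.2), so that the intervals of its lowest and highest groups just met. Ranking by either replicate alone gave CTCF shares of 4.98% and 6.91% in the lowest group and 25.4% in the highest by both. For GATA the lowest groups had 27.9% in both rankings, and the highest 22.8% and 19.6%. Weak sites of replicate 1 alone had CTCF shares of 3.89%, 9.38% and 26.4%, so the CTCF gradient was not limited to the recurring sites. Their GATA shares were 14.3%, 17.3% and 17.9%.

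Distance to strict intervals moved with these groups, from a median of 6.59 kb in the lowest to 17.7 kb in the highest. Among distal sites more than 10 kb from a strict interval, the CTCF share still ranged from 10.04% in their lowest group to 32.4% in the highest, and the GATA share was 21.6%, 23.9% and 19.7%. Within 10 kb, the CTCF shares were 0.980%, 10.3% and 18.05%, and the GATA shares 32.8%, 29.9% and 22.9%. When the sites were ranked by −log10 p instead, the CTCF share was 8.82%, 17.1% and 23.3%, while the GATA share was 23.9%, 26.8% and 23.5%. The lower GATA share at high enrichment was thus not seen under the ranking by significance, whereas the CTCF share kept its order under each ranking tried. The part of the distance to strict intervals in these orders was not tested further.

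**Figure D4:**
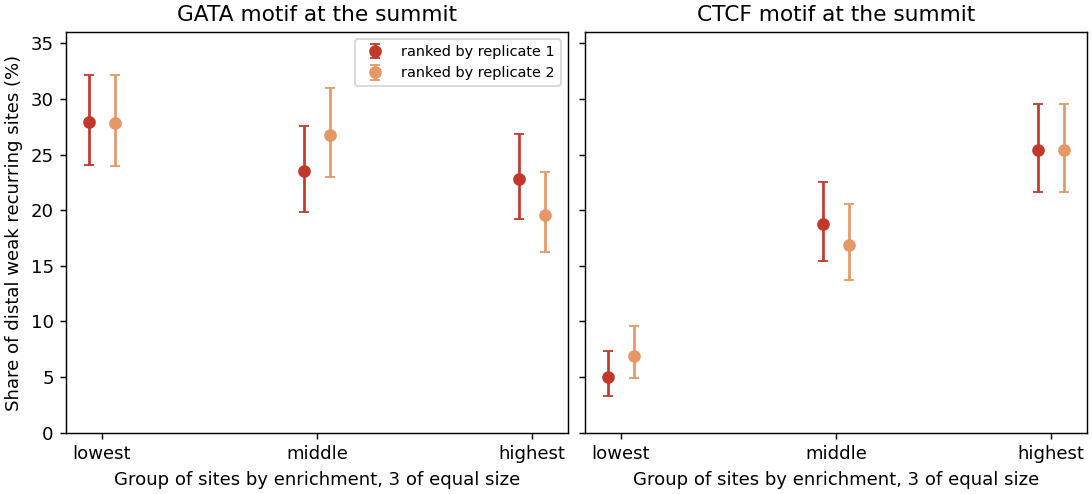
Share of distal weak recurring sites (vertical axis, %, with 95% Wilson intervals) that hold a GATA motif (left) or a CTCF motif (right) in each of 3 groups by enrichment, ranked by replicate 1 or by replicate 2. The CTCF share goes from 4.98% to 25.4% with replicate 1 ranks, and the GATA share from 27.9% to 22.8%.

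Promoters with a weak recurring site had fewer of the CpG-rich features of strict promoters. CpG observed over expected in the window had a median of 0.538 at the 503 promoter sites, 0.417 at the 698 promoter sites of replicate 1 alone and 0.775 at the 12911 strict ones. A ratio of at least 0.6 was found at 44.9%, 33.7% and 69.5%. The GC box, bound by SP and KLF factors, was in 28.8% of the weak recurring promoter windows (25.04 to 32.9) and in 49.4% of the strict ones, with 1.48% in the genome. The ETS motif (CCGGAAG) was in 3.58% and 12.3%, with 0.441% in the genome, the NFY motif in 14.3% and 28.0%, with 23.0% in the genome, and the NRF1 motif in 1.99% and 6.55%, with 0.036% in the genome.

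Few genes had a weak recurring site as their only sign of an open promoter. Of 21755 protein-coding genes, 10152 (46.7%) had a strict interval within 1 kb of a start, and 196 (0.901%) had a weak recurring site and no strict interval. A further 510 had only weak sites of 1 replicate, and 10897 had none. The 196 depended on the lists used: it was 638 when only the thresholded list of each replicate counted as strict and 110 for sites above the median significance of weak sites. Without the need to recur it was 427 in replicate 1 and 498 in replicate 2. In all, 424 genes had a weak recurring site at the promoter, and 228 of them (53.8%) also had a strict interval there. The 196 genes were served by 188 sites, with median enrichments of 3.78 and 3.70. The start lay within 100 bp of the summit for 87 of the genes, and 56 had a count of 0 strict sites within 50 kb. Counts of strict sites within 50 kb of a start, here and below, missed some intervals of the strict lists. At Alox12e, where the count was 0, a strict interval lay 12.5 kb from the promoter site.

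The strongest of these promoters, by mean enrichment and named after their values were seen, were mixed in kind. After Trim30d and Nfe2l3 came Zfp58, a zinc finger gene, with 5.01 in replicate 1 and 6.83 in replicate 2. Dnm3, a dynamin gene, had 4.42 and 6.55. Fyb, an adaptor of T cells and platelets, had 6.02 and 4.86. Next in this order were Nt5c1a, Tmem158 and Nek5, and then Nckap1l. Nckap1l, which encodes an actin regulator of blood cells, had 5.74 and 4.55. Its site lay 76.4 kb from the nearest strict interval. After Map3k5 came Epb41l2, a relative of the erythroid membrane protein 4.1 gene, with 4.05 and 6.07. The summit lay 18 bp from a start, and the site 59.9 kb from the nearest strict interval.

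The gene lists held almost none of them. None of the 105 erythroid genes on 5 lists (globins, regulators, heme or iron genes, genes of the membrane skeleton, and receptors with maturation genes) had a weak recurring site as the only promoter site. At the 0.901% of all protein-coding genes, a list of this size would hold few in any case, and most of these genes had a strict interval. Of the lists for other cells and functions, only the B cell list held 1 of 17 genes. It was Cr2, the complement receptor of B cells, with 3.30 in replicate 1 and 3.36 in replicate 2 (mean 3.33 ± 0.0472, SD, n = 2) at chr1:195176582-195176966, 94 bp from a start.

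**Figure D5:**
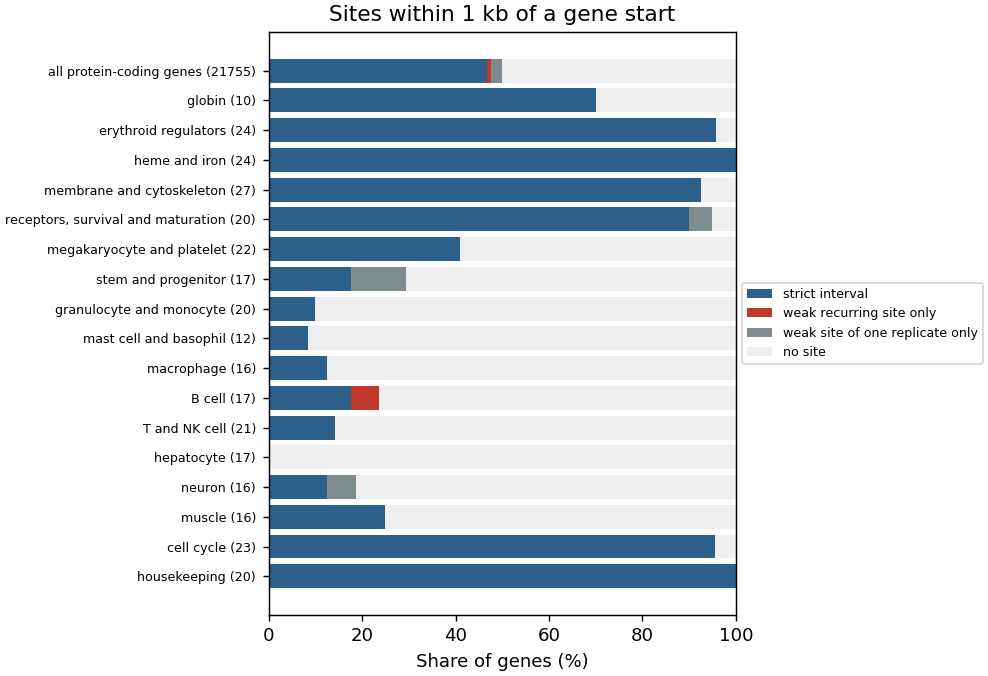
Share of genes (horizontal axis, %) in each list, with the number of genes in brackets, by the strongest kind of site within 1 kb of a start. The share with only a weak recurring site is 0.901% of all protein-coding genes, 1 of 17 B cell genes and 0 in every other list.

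Around erythroid genes the weak recurring sites accompanied strict ones. Of the 105 genes, 33 had a weak recurring site within 50 kb of a start, through 45 distinct sites. Among all protein-coding genes, 16.1% had one, with a mean of 0.186 sites per gene beside 3.49 strict sites. The erythroid regulators had 0.500 beside 10.5, and the heme and iron genes 0.542 beside 8.38 strict sites. The share of genes with a weak recurring site within 50 kb was 41.7% and 37.5% in these lists. It was 33.3% for the membrane genes, 25% for the receptors with maturation genes and 0% for the globins. The B cell list had values similar to those of the regulators, with 0.471 weak recurring sites per gene and 7 of 17 genes (41.2%), beside 2.94 strict sites. A site was counted for more than 1 gene at Vpreb1 and Igll1, at Rag1 and Rag2, and among the regulators at Stat5a and Stat5b. No weak recurring site lay within 50 kb of the outermost genes of the alpha or beta globin cluster, where 20 and 15 strict intervals were found.

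Several of these sites lay inside the genes. Sox6, a transcription factor that represses embryonic globin genes, had 3 within 50 kb of a start, all inside the gene. Their enrichments in replicates 1 and 2 were 2.41 and 2.81, 2.45 and 2.60, and 3.53 and 4.17. In that order they lay 493 bp, 58 bp and 36.8 kb from a strict interval. In Bach1, the gene of a heme-sensing repressor, an intronic site had 3.44 and 4.80, and its sequence is given above. Bcl11a, another globin repressor gene, had an intronic site with 2.70 and 2.43, and Tal1 one with 2.40 and 2.22. The site at Bcl11a held a GATA motif and that at Tal1 did not. Tfrc, the transferrin receptor gene, had an intronic site with 2.27 and 2.92, and one 30.5 kb from its start with 3.24 and 5.41. In Alas2, which encodes the erythroid enzyme that starts heme synthesis, an intronic site with 2.08 and 2.74 lay 130 bp from a strict interval. The 45 sites had median enrichments of 2.71 and 3.02, below those of all weak recurring sites. A GATA motif was in 15 of them, 33.3%, and a CTCF motif in 0. Over all weak recurring sites these shares were 21.1% and 13.9%, and at the 334 within 1 kb of a strict interval 22.5% and 1.80%. At distal sites within 10 kb of a strict interval the GATA share was 32.8%, 29.9% and 22.9% from the lowest to the highest group by enrichment. The 45 sites are few and weak, and their GATA share was not tested against these.

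Among those with a GATA motif beyond 1 kb of a start, the highest mean enrichments were at the sites whose sequences are given above. A site 36.2 kb from Alox15, a lipoxygenase gene of maturing red cells, had 4.30 and 5.41. The count of strict sites within 50 kb of a start of that gene was 0, but such counts missed some intervals, as stated above. The Alox12e promoter site, 12.5 kb from a strict interval, lay 23.6 kb from the start of Alox15. A strict interval was thus within 50 kb of that start. A site 25.2 kb from Trim10, a gene of terminal erythroid maturation, had 4.38 and 5.28. Which gene, if any, such sites act on was not measured.

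Dense groups of weak recurring sites were rare. Within 50 kb of a start, 18259 protein-coding genes (83.9%) had none, 2995 had 1, 448 had 2, 50 had 3 and 3 had 4. The 3 genes were Atp8a1, a phospholipid flippase gene, Ift140, a gene of transport in cilia, and Map7, a microtubule-binding protein gene. All 3 had a strict interval at a start, with 7, 9 and 3 strict sites within 50 kb. Crtap, a collagen-modifying gene, had 3 weak recurring sites within that distance.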

How the data were processed

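ATAC-seq of 2 replicates of 1 group was analysed from the narrowPeak lists that the authors deposited in mm10. The sources used here name no read aligner or peak caller. Per the file headers and listings, each line of the deposited lists holds a score, a fold enrichment (a ratio of summit to background), −log10 p and −log10 q values or, in ranked lists, the −log10 IDR, and the offset of the summit from the start in bp (other deposited values).

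Lines with the same interval were joined, keeping the summit of highest enrichment. Overlap was at least 1 bp. Starts and exons came from GENCODE M21 and sequences from GRCm38.p6, and 13 motifs were searched as letters. Shares have Wilson intervals at 95%. The fold over replicates is given as mean ± SD. Python 3.11.15, numpy 2.4.6, pandas 2.3.3 and scipy 1.17.1 were used, and overlap and motif functions were tested on simulated data. No test between conditions was possible with 1 group, and no depth was known.

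The sites, gene lists and motifs were chosen with earlier results of these data known. Sites named were the 10 of highest mean enrichment, list genes with only a weak recurring promoter site (at most 6 per list), sites in the globin regions, the 10 genes with most sites within 50 kb, and the 3 strongest distal sites with each of GATA and CTCF. 1 of these sites is not reported here. Other named genes, the groups by enrichment, the motif groups and the erythroid neighbours were chosen after values were seen. Alternatives covered the overlap, the strict lists, the significance, the promoter distance, the start sites, the motif window and each replicate left out.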

Additional observations from a re-analysis of the deposited data

How the results depend on the processing

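With 2 replicates, the spread used as a yardstick was the SD between the set and its mirror image in replicate 2. It is very small because both hold nearly the same places, so 49 of the 66 alternative values differed by more than it (for counts, by more than 1.5-fold) and 17 did not. No paired analysis was possible because the study has 1 group. When only the thresholded list of each replicate counted as strict, there were 7145 sites, 28.2% at promoters, 20.5% with GATA, 19.6% with CTCF, 638 genes with no other promoter site, a median enrichment of 4.205 and a median distance of 12095 bp to a strict interval. The number of sites thus rested on this definition, as well as on the cut on significance and the need to recur. For sites above the median significance of all weak sites the values were 1118, 26.4%, 22.2%, 15.6%, 110 genes, 4.12 and 9501.5 bp. For sites over 1 kb from every strict interval, promoters held 21.5%, GATA 20.8% and CTCF 16.5%, with medians of 3.74 and 16245 bp. In the mirrored set the shares were 26.3%, 21.4% and 14.3%, with medians of 3.67 and 11626 bp. Overlap of at least 50% of both intervals gave 21.6% with GATA and 10820 bp, and replicate 2 intervals outside the strict lists, a choice made after seeing the data, gave 11642.5 bp.

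The promoter share was 18.5% within 500 bp and 13.9% with only the outermost start of protein-coding genes. GATA was in 15.9% of windows of 50 bp and in 31.3% of windows of 150 bp to each side of the summit, and in 21.6% at replicate 2 summits. CTCF was in 12.8%, 15.2% and 14.3%. Without a need to recur, the replicates left out in turn gave 5215 to 6429 sites, 22.2% to 23.0% at promoters, 17.3% to 17.8% with GATA, 12.4% to 12.9% with CTCF, 427 to 498 genes, median enrichments of 3.42 to 3.44 and distances of 13073 to 13881 bp. The cause was not tested. Depth was not known, so a site listed in 1 replicate may be present and undetected in the other.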
